A study of Danio rerio with 33 samples.

Results

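The keratin genes krt4, krt5, krt8, krt15, krt17, krt18, krt92, krt97, cyt1 and cyt1l of the zebrafish were taken by symbol from the deposited gene table, and all 10 were found among its 30490 genes. All 10 passed the filter on low counts in the embryos and in the gonads. In the embryos krt15 passed only with the mutants, where it was highest, in the fit. A fit of the embryo groups without the mutants tested 9 of the 10. The 10 genes were proposed with earlier results of these libraries known, among them that some rose and others fell with kctd15, so the tests of kctd15 given here describe the same libraries and are no independent evidence of direction. No values were used to add or drop a gene.

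Keratins are the intermediate filament proteins of epithelial cells, and a filament is built from pairs of a type I and a type II chain. At the somite stages the skin of a zebrafish embryo is an outer periderm, which descends from the enveloping layer, over a basal epidermis, and keratins are among its most abundant products. Krt4, krt5 and krt8 encode type II keratins. Krt15, krt17, krt18, krt92, cyt1 and cyt1l encode type I keratins, krt8 and krt18 are the classic pair of simple epithelia, and cyt1 is known as a cytokeratin of the enveloping layer and periderm.

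Polyadenylated RNA was sequenced from 21 samples of embryos at 10 somites in 7 groups and from 12 samples of adult gonads in 4 groups, with 3 biological replicates in each group. Wild-type embryos carried no named injection (called wild type here), 5 pg AP2, 5 pg AP2-P59, 100 pg kctd15, 5 pg AP2 with 100 pg kctd15, or 5 pg AP2-P59 with 100 pg kctd15. The 7th embryo group was kctd15 mutants, and the gonad groups were ovary and testis of adult fish, wild-type or mutant for kctd15. The protein Kctd15 carries a BTB domain and is known to inhibit AP2 transcription factors, which act in epidermis and neural crest. The labels give neither the AP2 paralog, nor the change in AP2-P59, nor whether RNA or DNA was injected, nor the mutated kctd15 gene and its allele, and they name no control injection. They call the replicates biological without giving the number of embryos or fish in each, so p-values measure the spread between these samples. The embryos were not divided into tissues, so fewer skin cells and less keratin RNA per cell cannot be told apart in any embryo result.

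Libraries held 15152199 to 24131756 estimated counts. Levels are given as CPM after TMM scaling, and levels of different genes are not compared because gene lengths were not used. The injected kctd15 was looked for in the kctd15a transcript NM_001006012, which had 201 to 494.9 estimated counts after kctd15 alone, 273.1 to 730.5 after AP2 with kctd15 and 0 to 34.1 in wild type. After AP2-P59 with kctd15 it had 170.6 and 472.5 counts in replicates 2 and 3 and 0 in replicate 1. This transcript thus did not show the injection in replicate 1, and the main results resting on that library are also given without it. The check is a weak one. In the mutants, whose labels name no injection, the transcript had 120.5, 0 and 52.5 counts. The whole kctd15a gene had a lowest, median and highest level of 40.7, 44.2 and 117 CPM after AP2-P59 with kctd15. Its range in wild type was 39.4 to 56.5 CPM. In 2 other genes AP2-P59 with kctd15, replicate 1 included, did not overlap AP2-P59 alone. The crest marker crestin was at 49.2 to 87.4 against 113 to 205 CPM, and kctd15b at 1.44 to 3.2 against 3.63 to 7.3 CPM. The crest gene sox10 overlapped, at 12.5 to 38.3 against 36 to 61.6 CPM. Whether replicate 1 received kctd15 was not tested. In the mutant embryos the kctd15a gene was at 189 CPM ± 9.3 (SD, n = 3) against 48.9 ± 8.7 in wild type, so the mutation was not visible as less kctd15a RNA. Kctd15b was low, at 5.93 CPM ± 1.15 in mutant embryos against 3.99 ± 0.289 in wild type. It was at 0.609 ± 0.4 against 3.35 ± 1.49 CPM in ovary and 0.743 ± 0.323 against 1.18 ± 0.748 CPM in testis.

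Together the 10 genes took 1.95% to 2.38% of all counts in the wild-type libraries. The share was 2.59% to 3.42% in the kctd15 mutants, above every wild-type library. It was 1.52% to 1.88% after AP2 with kctd15, below every wild-type library. Krt15 stood outside this description. It had 0 to 2.48 CPM in the embryos against 25.8 to 125 CPM in the gonads, so as a skin keratin of these embryos it was hardly detected.

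**Figure D1:**
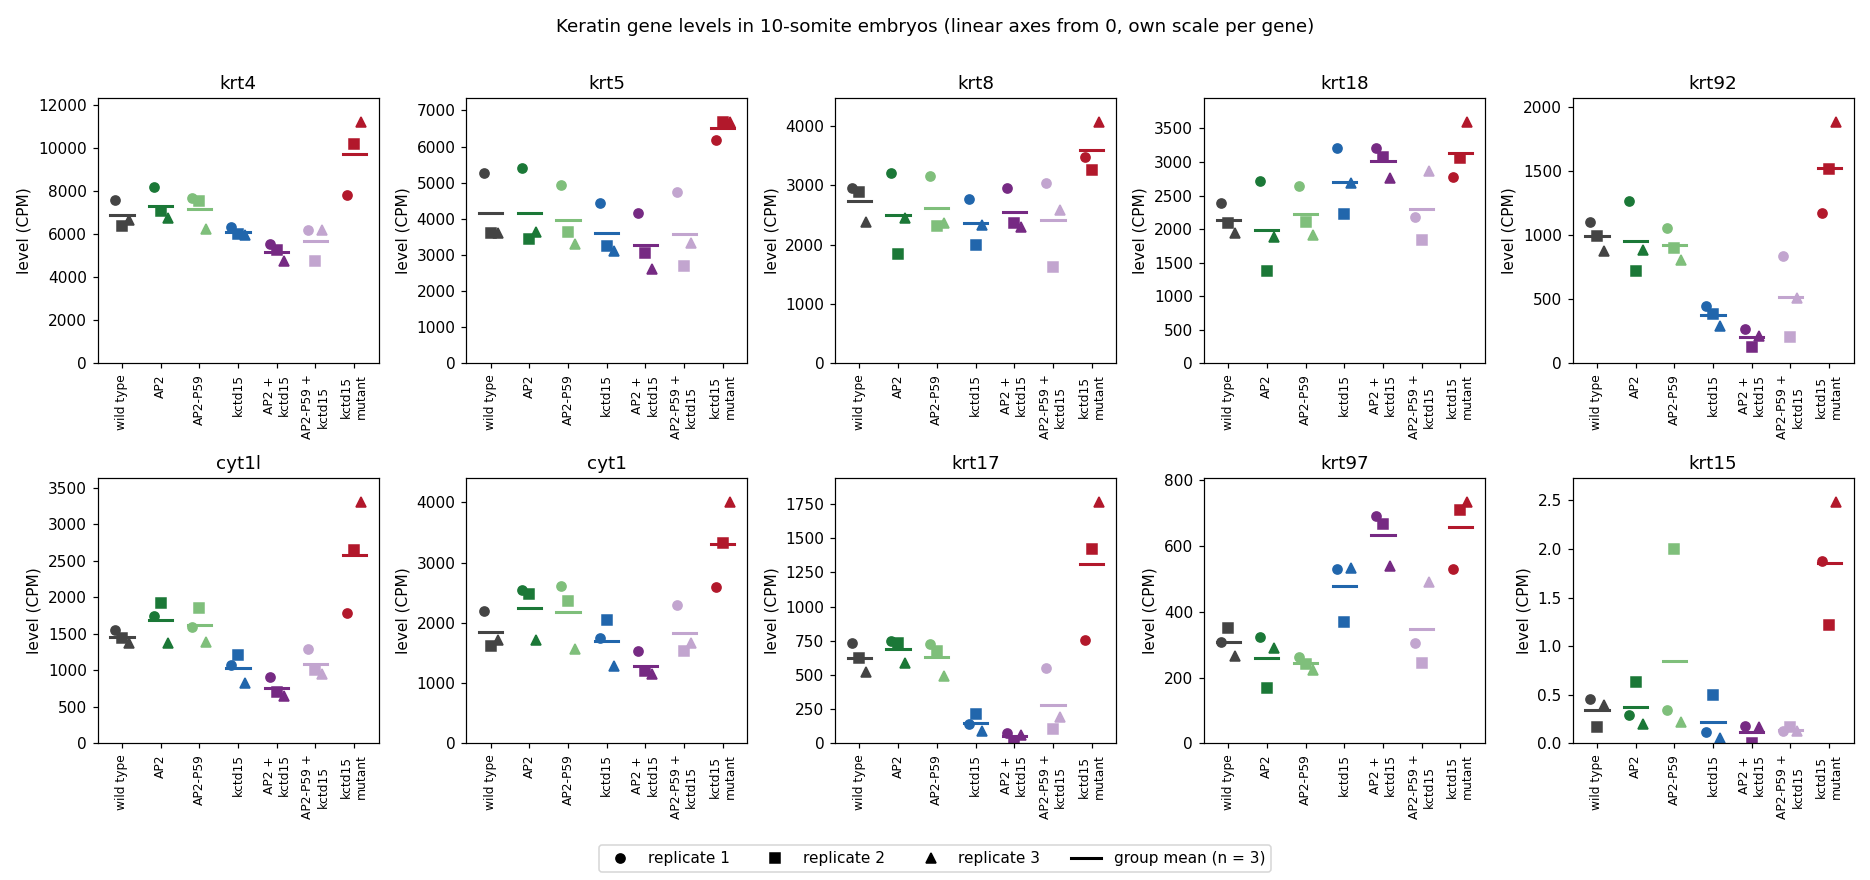
Level of each keratin gene (CPM, linear axis from 0) in the 21 embryo libraries, by group. Points are libraries, shaped by replicate number, and lines are means of 3. Krt17 and krt92 have lower and krt97 higher means in each kctd15 injection than in its control, and the mutants lie above wild type for all 10 genes.

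Kctd15 injection lowered krt17, krt92 and cyt1l and raised krt97. These 4 genes passed the test of the kctd15 effect averaged over the 3 backgrounds (no AP2, AP2, and AP2-P59), which weighs the 3 effects equally and rests on 3 pairs of groups with no library in common. The other 6 did not pass. In this comparison 0.525% of the 22305 genes tested were called, 0.0762% higher and 0.448% lower. Calls throughout are adjusted p under 0.05 by edgeR's quasi-likelihood test with Benjamini-Hochberg adjustment over all genes.

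Krt17, a type I keratin, had the largest fall among the 10 genes. Its level was 736, 623 and 519 CPM in wild-type replicates 1, 2 and 3 and 141, 212 and 89 CPM after kctd15. With AP2 it was 750, 736 and 585 CPM alone and 78.5, 21.7 and 63.3 CPM with kctd15 added. With AP2-P59 it was 723, 675 and 496 CPM alone and 551, 107 and 190 CPM with kctd15 added. The groups with and without kctd15 did not overlap in the first 2 backgrounds and did in the last, where replicate 1 of AP2-P59 with kctd15 lay among the embryos without kctd15. The averaged log2 fold change was -2.3 (SE 0.3, adjusted p = 0.00052, edgeR), and -2.62 (adjusted p = 5.3e-05) without that library.

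Krt92, another type I keratin, also had a lower mean with kctd15 than without it in each background. It was at 1100, 997 and 874 CPM in wild type against 449, 385 and 291 CPM after kctd15. With AP2 the values were 1270, 718 and 885 CPM alone and 272, 125 and 212 CPM with kctd15. With AP2-P59 they were 1060, 901 and 810 CPM alone and 838, 209 and 510 CPM with kctd15. Again only the AP2-P59 groups overlapped, through the same replicate 1. The averaged log2 fold change was -1.49 (SE 0.21, adjusted p = 0.0015, edgeR), and -1.67 without that replicate.

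Cyt1l, the gene named as cyt1-like, fell less. It was at 1550, 1440 and 1370 CPM in wild type and 1080, 1210 and 829 CPM after kctd15. With AP2 it was at 1750, 1930 and 1380 CPM alone and 917, 702 and 656 CPM with kctd15. With AP2-P59 it was at 1600, 1860 and 1390 CPM alone and 1300, 1010 and 958 CPM with kctd15. No group with kctd15 overlapped its own control in any background. The averaged log2 fold change was -0.74 (SE 0.12, adjusted p = 0.0042, edgeR), and -0.79 without replicate 1 of AP2-P59 with kctd15.

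Krt97 was the 1 keratin of the 10 that was called higher. It was at 307, 351 and 264 CPM in wild type and 530, 367 and 532 CPM after kctd15. With AP2 it was at 323, 167 and 291 CPM alone and 691, 667 and 537 CPM with kctd15. With AP2-P59 it was at 263, 241 and 224 CPM alone and 306, 243 and 489 CPM with kctd15. The groups were apart in the first 2 backgrounds and met in the last, where replicate 2 with kctd15 lay within its control group. The averaged log2 fold change was 0.81 (SE 0.14, adjusted p = 0.007, edgeR), and 0.83 without replicate 1 of AP2-P59 with kctd15.

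The other 6 genes had smaller or less certain averaged effects. For krt4, used widely as a marker of superficial skin in zebrafish, the averaged log2 fold change was -0.33 (SE 0.087, adjusted p = 0.12, edgeR), and -0.36 without the same replicate 1. It passed with DESeq2 (adjusted p = 0.01) and with the replicate number as a block (adjusted p = 0.038), although the numbers did not pair the libraries over the whole of this comparison. Krt18 had log2 0.33 (adjusted p = 0.56), and cyt1 had -0.39 (adjusted p = 0.45). Krt5 had -0.23 and krt8 -0.1, each with an adjusted p of 1. The low krt15 had -1.54 (SE 0.53, adjusted p = 0.45), resting on at most 11.04 estimated counts in all but 1 of the 18 libraries compared.

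**Figure D2:**
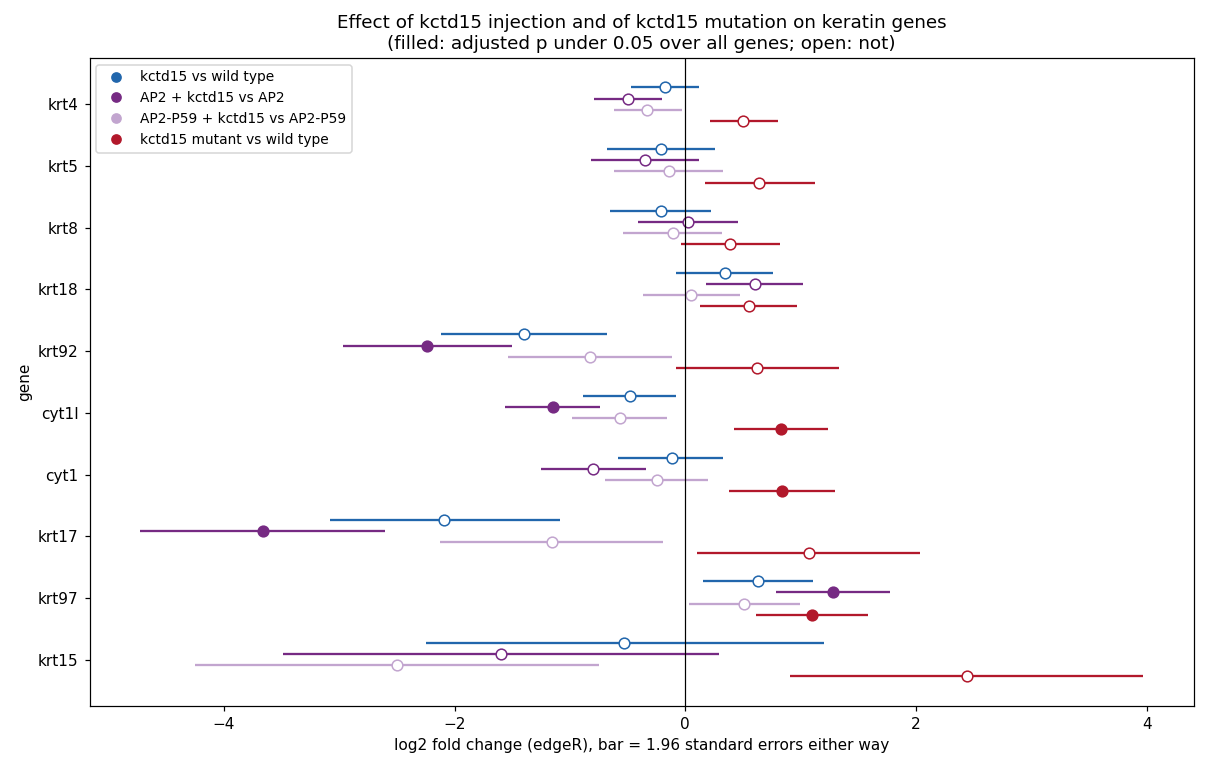
Log2 fold change of each keratin gene (edgeR; bars are 1.96 standard errors either way) for kctd15 in 3 backgrounds and for the kctd15 mutants. Filled points passed an adjusted p of 0.05 over all genes. Krt17 shows the widest separation of the kctd15 effects, from -3.66 with AP2 to -1.16 with AP2-P59, and the mutant points of all 10 genes lie above 0.

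Taken background by background, the 4 genes passed only where kctd15 was added to AP2, in edgeR's quasi-likelihood test. There 0.197% of all genes were called, 0.0134% higher and 0.184% lower. Krt17 fell by 3.66 on the log2 scale (SE 0.54, adjusted p = 0.0076). Krt92 had log2 -2.24 (SE 0.38, adjusted p = 0.015) and cyt1l -1.15 (SE 0.21, adjusted p = 0.025), while krt97 rose by 1.28 (SE 0.25, adjusted p = 0.037). Of the 10 genes 8 had groups that did not overlap, all but krt5 and krt8, where 8.52% of all genes did not overlap. Krt18 and krt97 were the 2 that lay higher, beside 3.59% of all genes, and 6 lay lower, beside 4.93%. Krt15, among the 6, rests there on 0 to 2.998 estimated counts against 4 to 11.04. These calls leaned on single libraries: 2 of the 10 genes were called without AP2 replicate 1, 2 without AP2 replicate 2, 1 without replicate 3 of AP2 with kctd15 and 0 without its replicate 2, when 2 of all genes were called. When the fit held only the 2 groups compared, 0 of the 10 and 0 of all genes were called.

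For kctd15 alone against wild type, 0 of the 10 genes were called, as were 0 of all genes (0%) in edgeR. Without adjustment 763 genes had p under 0.05. DESeq2 called 16 genes, the replicate block 12, and limma-trend 1 or 0 depending on the pseudocount, none of them among the 10. Krt17 had log2 -2.09 (SE 0.51, adjusted p = 0.55) and krt92 -1.4 (SE 0.37, adjusted p = 0.78). Cyt1l had -0.48 and krt97 0.63, both with an adjusted p of 1. The groups did not overlap for 5 of the 10 genes, these 4 and krt4, and for 7.77% of all genes. Krt97 lay higher, beside 4.22% of all genes, and the other 4 lower, beside 3.56%.

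For kctd15 added to AP2-P59, 0 of the 10 genes and 0% of all genes were called in edgeR, with 906 genes at p under 0.05 before adjustment. The block fit called 13 genes, DESeq2 16 and limma-trend 0, again none of the 10. Krt17 had log2 -1.16 (SE 0.49) and krt92 -0.83 (SE 0.36), and without replicate 1 of the co-injected group these were -2.09 (adjusted p = 0.46, edgeR) and -1.37 (adjusted p = 0.62). Cyt1l had -0.57 and krt97 0.51. Groups did not overlap for 3 of the 10 genes, krt4, krt15 and cyt1l, against 7.91% of all genes. For krt15 this rests on 1.999 to 3.01 estimated counts with kctd15 and 4.006 to 31.83 without it.

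Whether the kctd15 effect depended on the background was tested as a difference of effects. Neither difference called any of the 10 genes or any other gene in edgeR, the block fit or DESeq2, with 652 and 555 genes at p under 0.05 before adjustment. The effect on krt17 with AP2 minus that without AP2 was -1.57 on the log2 scale, with an interval of 1.96 SE either way from -2.94 to -0.21 and an adjusted p of 1. Set against AP2-P59 the difference was -2.5 (interval -3.88 to -1.13, adjusted p = 1, edgeR), and it shrank to -1.57 without replicate 1 of AP2-P59 with kctd15. For krt92 the differences were -0.84 (interval -1.83 to 0.16) and -1.4 (interval -2.41 to -0.4). The latter was -0.87 at its weakest under the other settings. For cyt1l the differences were -0.67 and -0.58, and for krt97 0.65 and 0.77.

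Without kctd15, the AP2 injections gave no call among the 10 genes. None was called after AP2, after AP2-P59 or between the 2 forms, and in edgeR 0% of all genes were called in each, with 745, 1199 and 292 genes at p under 0.05 before adjustment. DESeq2 called 0, 11 and 0 genes and the block fit 1, 0 and 1, none of the 10. Log2 fold changes of the 9 genes other than krt15 ran from -0.24 for krt97 to 0.28 for cyt1 after AP2. After AP2-P59 they ran from -0.34 for krt97 to 0.24 for cyt1. These comparisons share the wild-type libraries, as do those of kctd15 alone and of the mutants. As a check of the labels, tfap2a was at 177 CPM ± 24.1 after AP2, 203 ± 37.7 after AP2-P59 and 170 ± 32.9 in wild type (SD, n = 3). Tfap2c was at 272 ± 38.5, 248 ± 6.71 and 274 ± 33.9 CPM. The AP2 injections were thus not visible as more RNA of either gene beyond these SDs, and the labels do not name the paralog.

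The order of group means followed from these values. For krt17 the means were 1310 CPM in mutants, 690 after AP2, 631 after AP2-P59, 626 in wild type, 283 after AP2-P59 with kctd15, 147 after kctd15 and 54.5 after AP2 with kctd15. AP2, AP2-P59 and wild type did not differ beyond their SDs of 91.4 to 120. The means after kctd15 alone and after AP2-P59 with kctd15 differed by less than the latter's SD of 236. That mean of 283 CPM includes replicate 1 at 551 CPM, and the other 2 libraries, at 107 and 190 CPM, lay within the 89 to 212 CPM after kctd15 alone. For krt97 the order was 657 CPM in mutants, 632 after AP2 with kctd15, 476 after kctd15, 346 after AP2-P59 with kctd15, 307 in wild type, 260 after AP2 and 243 after AP2-P59. The first 2 of these differed by less than their SDs of 111 and 82.6. AP2 differed from wild type and from AP2-P59 by less than its own SD of 82.4. Krt97 after AP2-P59, at 224 to 263 CPM, lay below the 264 to 351 CPM of wild type without overlap, beside 4.66% of all genes. It was not called there (log2 -0.34, adjusted p = 0.94, edgeR).

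In kctd15 mutant embryos all 10 genes were higher than in wild type, with no overlap between the groups, which 12.5% of all genes showed in that direction. Krt15 adds no support to this count, because it passed the low-count filter only through its level in the mutants. Of the 10, 3 passed edgeR's test, all higher, where 1.36% of all genes were called higher and 4.09% in either direction. Krt97 went from 307, 351 and 264 CPM to 529, 709 and 731 CPM (log2 1.1, SE 0.25, adjusted p = 0.019). Cyt1l went from 1550, 1440 and 1370 CPM to 1790, 2650 and 3300 CPM (log2 0.83, SE 0.21, adjusted p = 0.031). Cyt1, the enveloping layer cytokeratin, went from 2200, 1620 and 1720 CPM to 2590, 3320 and 4000 CPM (log2 0.84, SE 0.23, adjusted p = 0.048).

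The remaining 7 lay higher in the mutants without passing. Krt4 went from 7600, 6390 and 6680 CPM to 7840, 10200 and 11200 CPM (log2 0.5, SE 0.15, adjusted p = 0.067, edgeR). Krt17 went from 736, 623 and 519 CPM to 756, 1420 and 1760 CPM, with the lowest mutant just above the highest wild type (log2 1.07, SE 0.49, adjusted p = 0.24). Krt92 went from 1100, 997 and 874 CPM to 1170, 1520 and 1880 CPM (log2 0.62, adjusted p = 0.35). The epidermal type II gene krt5 had log2 0.64, and the simple-epithelial pair had 0.55 for krt18 and 0.39 for krt8, with adjusted p of 0.14, 0.15 and 0.34. Krt15 had 1.88, 1.22 and 2.48 CPM in the mutants against 0.461, 0.168 and 0.393 CPM in wild type (log2 2.44, SE 0.78, adjusted p = 0.085), which is 20.03 to 41.82 estimated counts against 3.007 to 6.998.

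The number called in the mutants moved with the settings. It was 5 with DESeq2, where 7.45% of all genes were called, and 7 with the replicate block, where 13.1% were. The replicate numbers did not pair the libraries of this comparison. The number called was 5 or 4 with limma-trend and 4 with only the 2 groups fitted. Without wild-type replicate 2 it was 1, and without wild-type replicate 3, mutant replicate 2 or mutant replicate 3 it was 0. Log2 fold changes of krt97 stayed between 1 and 1.24 throughout.

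Krt97 was thus called higher both after AP2 with kctd15 against AP2 and in the mutants against wild type. These comparisons had no library in common, although 1 fit of all embryos gave the spread for both. With 1 library left out at a time, the krt97 call held in 1 of 6 fits in the first and 3 of 6 in the second. Cyt1l was called lower in the first and higher in the second, and these calls held in 2 of 6 and 1 of 6 such fits. Krt17 and krt92 were called lower in the first and not called in the second.

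**Figure D3:**
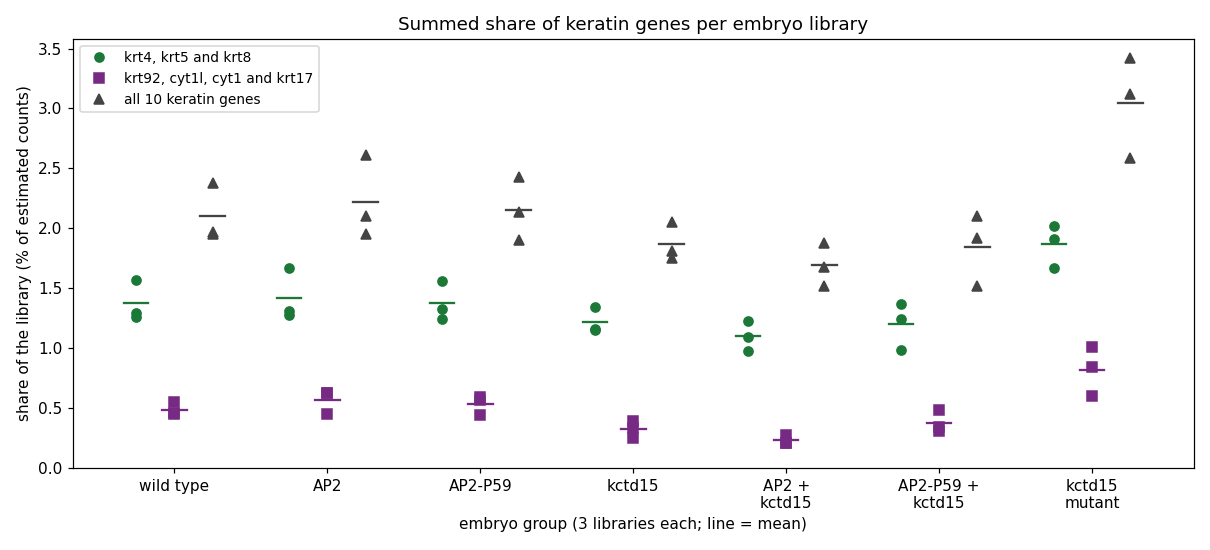
Share of each embryo library's estimated counts taken by the keratin genes (%, linear axis from 0), as points per library with group means. The sum of krt92, cyt1l, cyt1 and krt17 is 0.602% to 1.01% in mutants, 0.455% to 0.552% in wild type and 0.208% to 0.272% after AP2 with kctd15, and the sum of krt4, krt5 and krt8 is 1.67% to 2.02%, 1.26% to 1.57% and 0.979% to 1.23% in the same groups.

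The 3 genes that fell lie in 1 run with cyt1, which was not called. In the gene order of the GRCz12tu assembly, krt92, cyt1l, cyt1 and krt17 are consecutive, between krt1-19e and krt91. Krt97 lies elsewhere, between krt222 and krt96, and krt5, krt8 and krt18 (krt18a.1 in that assembly) form another run. Summed over the 4 consecutive genes, the share of all counts was 0.488% ± 0.056 (SD, n = 3) in wild type and 0.329% ± 0.07 after kctd15. With AP2-P59 it was 0.535% ± 0.081 alone and 0.488%, 0.311% and 0.34% in replicates 1, 2 and 3 with kctd15. With AP2 it was 0.569% ± 0.099 alone and 0.23% ± 0.036 with kctd15. The sums did not overlap there, nor between kctd15 alone (0.255% to 0.395%) and wild type (0.455% to 0.552%). With AP2 each of the 4 genes already lay lower without overlap, so the sum is no separate evidence. Genes of a keratin cluster resemble each other, and reads that match several are divided among them by estimate. How far that links their values was not tested.

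Their flanking genes gave no call in the averaged comparison. Krt91 had log2 -0.4 and krt1-19d -0.66, with adjusted p of 1 and 0.91 in edgeR. On the sides of krt97, krt222 had -0.08 and krt96 -0.47. Among the 9 other keratin genes listed, 8 were tested, and 0 of them were called in the averaged comparison by edgeR, with a median log2 of -0.29 against 0.01 for all genes. In the mutants krt222 was called higher, at 27.1 CPM ± 2.4 against 12.7 ± 3.15 (SD, n = 3; log2 1.09, adjusted p = 0.013, edgeR), while krt96 had log2 0.44.

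Across the 21 embryo libraries several pairs of the genes moved together, without forming separate sets. Krt17 and krt92 had a Pearson r of 0.98, cyt1 and cyt1l 0.93, and krt18 and krt97 0.9, on log2 levels. Krt17 and cyt1l also had 0.93, krt4 and cyt1l 0.92, and krt92 and cyt1l 0.9. Krt17 and krt97 had -0.33. When each library was taken as its deviation from its own group mean, which removes differences between groups, krt17 and krt92 still had r = 0.87, cyt1 and cyt1l 0.88 and krt18 and krt97 0.87, while krt17 and krt97 had 0.05. Krt8 and krt18, the simple-epithelial pair, had 0.66 on levels and 0.83 on deviations. On deviations krt8 also had 0.82 with krt92 and 0.71 with krt97. These points share libraries, depth and scaling, so the values describe the libraries.

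Part of the spread within groups followed the replicate number. Here each library was set against the mean of log2 levels in its group, not the mean CPM. Krt5 was above that mean in replicate 1 in 6 of the 7 embryo groups, and in replicate 3 in 1 of 7. Its median ratio to that mean, on the linear scale, was 1.29 in replicate 1. Krt4, krt8, krt17, krt92 and cyt1 were also above their log2 group mean in replicate 1 in 6 of 7 groups. For each of these genes and krt5 the exception was the kctd15 mutants, where replicate 1 lay below that mean. Krt17, for example, was at 756 CPM in mutant replicate 1 and at 1420 and 1760 CPM in replicates 2 and 3. The same count was not made over all genes. What the number stands for is not given in the labels.

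Outside the keratins, the genes with levels most like those of krt17 over the 21 embryo libraries, among 10549 genes searched, were plcd1b (r = 0.96), tgm1l4 (0.95), eva1ba (0.94) and snai1b (0.94). For krt92 they were plcd1b (r = 0.98), tgm1l4 (0.94), dlx4b (0.93) and snai1b (0.93). Tgm1l4 is named as a transglutaminase, and snai1b encodes a Snail factor of the neural crest. For krt97 the likeness was lower, with sox19a (r = 0.86), prss60.1 (0.84), mis12 (0.78) and rgmd (0.78). These are the highest of many values over libraries shared by all genes, given as a description.

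Some other skin genes were called in the averaged comparison. Over all genes it called 0.525%, with 0.0762% higher and 0.448% lower. Of 24 tested genes of the periderm and cornified surface, 1 was called higher, the transglutaminase gene tgm5l (log2 0.5, adjusted p = 0.018, edgeR), and 1 lower, tgm1l4 (log2 -2.02, adjusted p = 0.013), with a median of 0.06 against 0.01 for all genes. Of 14 tested genes of the basal epidermis 2 were lower, frem2a, a basement membrane protein gene (log2 -1.21, adjusted p = 0.00035), and itga6b, an integrin subunit gene (log2 -0.56, adjusted p = 0.045), with a median of -0.23. Among 17 epidermal regulators 0 were called, with a median of -0.17. The summed level of the periderm list was 3070 to 3930 CPM in wild type and 3340 to 3890 after kctd15. It was 3200 to 4290 CPM after AP2 and 3170 to 3890 with kctd15 added. With AP2-P59 it was 3210 to 3970 CPM alone and 3370 to 3740 with kctd15 added. These ranges overlapped in each background. The summed level of the basal list did not overlap between kctd15 injections and their controls. It was 1500 to 1660 CPM in wild type and 1390 to 1460 after kctd15. It was 1490 to 1760 after AP2 and 1380 to 1450 with kctd15 added, and 1620 to 1910 after AP2-P59 and 1520 to 1600 with kctd15 added. The part of these lists in the keratin results was not tested.

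Genes of the neural crest fell beside the keratins. Of 13 tested, 6 were called lower in the averaged comparison and 0 higher in edgeR, with a median log2 of -0.72. Over all genes 0.448% were called lower there and 0.0762% higher. The crest marker crestin was at 120 to 154 CPM in wild type and 51 to 69.2 CPM after kctd15. The list's summed level was 741 to 897 CPM in wild type and 477 to 605 CPM after kctd15. Its part in the keratin results was not tested.

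In the mutants 1 of the 24 periderm genes was called higher, evplb, an envoplakin gene (log2 0.88, adjusted p = 0.036, edgeR), and 1 lower, tgm5l (log2 -0.66, adjusted p = 0.038). Over all genes 1.36% were called higher in this comparison and 2.73% lower. The basal list had 1 gene lower, the integrin gene itgb4 (log2 -1.05, adjusted p = 0.026), and 0 higher. The epidermal regulators had 0 called, with 15 of 17 above 0. The periderm list summed to 3960 to 4590 CPM in mutants against 3070 to 3930 in wild type, and the basal list to 1690 to 1810 against 1500 to 1660. Both sums were thus higher than in wild type without overlap. Gene by gene the shift was small, with a median log2 of 0.13 in the periderm list and 0.12 in the basal list. The median of all genes was -0.01. After AP2 the periderm sum reached 4290 CPM, within the range of the mutants. The part of these lists in the keratin result was not tested.

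**Figure D4:**
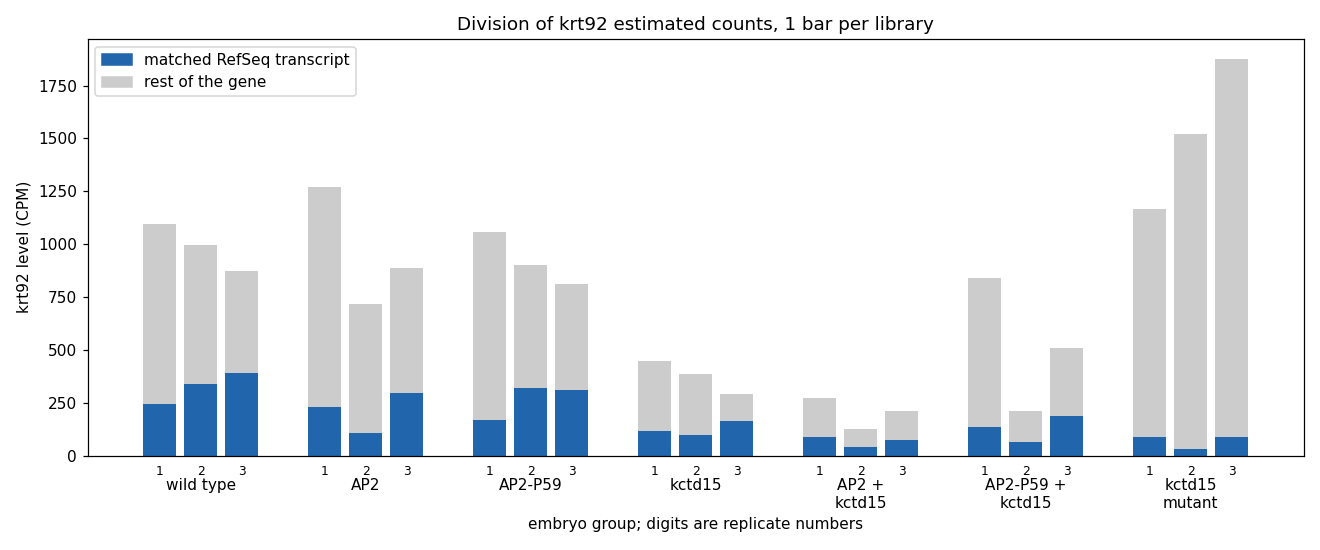
Krt92 level (CPM, linear axis from 0) in each embryo library, divided into the RefSeq transcript matched to krt92 (blue) and the rest of the gene's estimated counts (grey). The blue part is 31.8 to 87.2 CPM in the 3 mutants and 246 to 392 CPM in wild type, while the grey part is highest in the mutants.

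Krt92 was not a single quantity in these files. For 9 of the genes the transcript matched through RefSeq accounted for 99.6% to 101% of the gene's estimated counts in the embryos, but for krt92 the matched transcript NM_001017824 accounted for 2.1% to 55.9%. In wild type it was at 246, 339 and 392 CPM, with 851, 658 and 482 CPM in the rest of the gene. In the mutants it was at 87.2, 31.8 and 87.1 CPM, with 1080, 1490 and 1790 CPM in the rest. The matched transcript was thus lower and the rest higher in every mutant than in every wild-type library.

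A fit over all transcripts, chosen after these values were seen, gave log2 -2.25 for the matched transcript in mutants (SE 0.47, adjusted p = 0.022, edgeR), where 1.8% of 34809 transcripts were called. The adjusted p was 0.0042 with the replicate block, although the numbers did not pair the libraries of this comparison. It was 0.034 without wild-type replicate 1. It was 0.067 without wild-type replicate 2, 0.086 without wild-type replicate 3, and 0.052, 0.11 and 0.068 without mutant replicates 1, 2 and 3, so each of these 5 libraries ended the call. After AP2 with kctd15 the matched transcript and the rest both were lower than after AP2 alone, at 66.9 CPM ± 24 against 212 ± 95 and 136 ± 50 against 746 ± 250 (SD, n = 3). The matched transcript was not called there in the transcript fit (log2 -1.67, adjusted p = 0.54, edgeR) nor in the averaged comparison (log2 -1.36, adjusted p = 0.054). The division between transcripts is an estimate of the authors' quantification, and the rest was not matched to a named transcript here.

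In the adult gonads the 10 genes took a far smaller share of the counts. It was 0.0297% to 0.0353% in wild-type ovary and 0.19% to 0.228% in wild-type testis. After TMM scaling the means were 0.0423% and 0.15%. The genes of the krt92, cyt1l, cyt1 and krt17 run were at 11.6 CPM or less in all 12 gonad libraries, except krt92 in 1 mutant ovary, while krt8 stayed between 197 and 963 CPM.

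**Figure D5:**
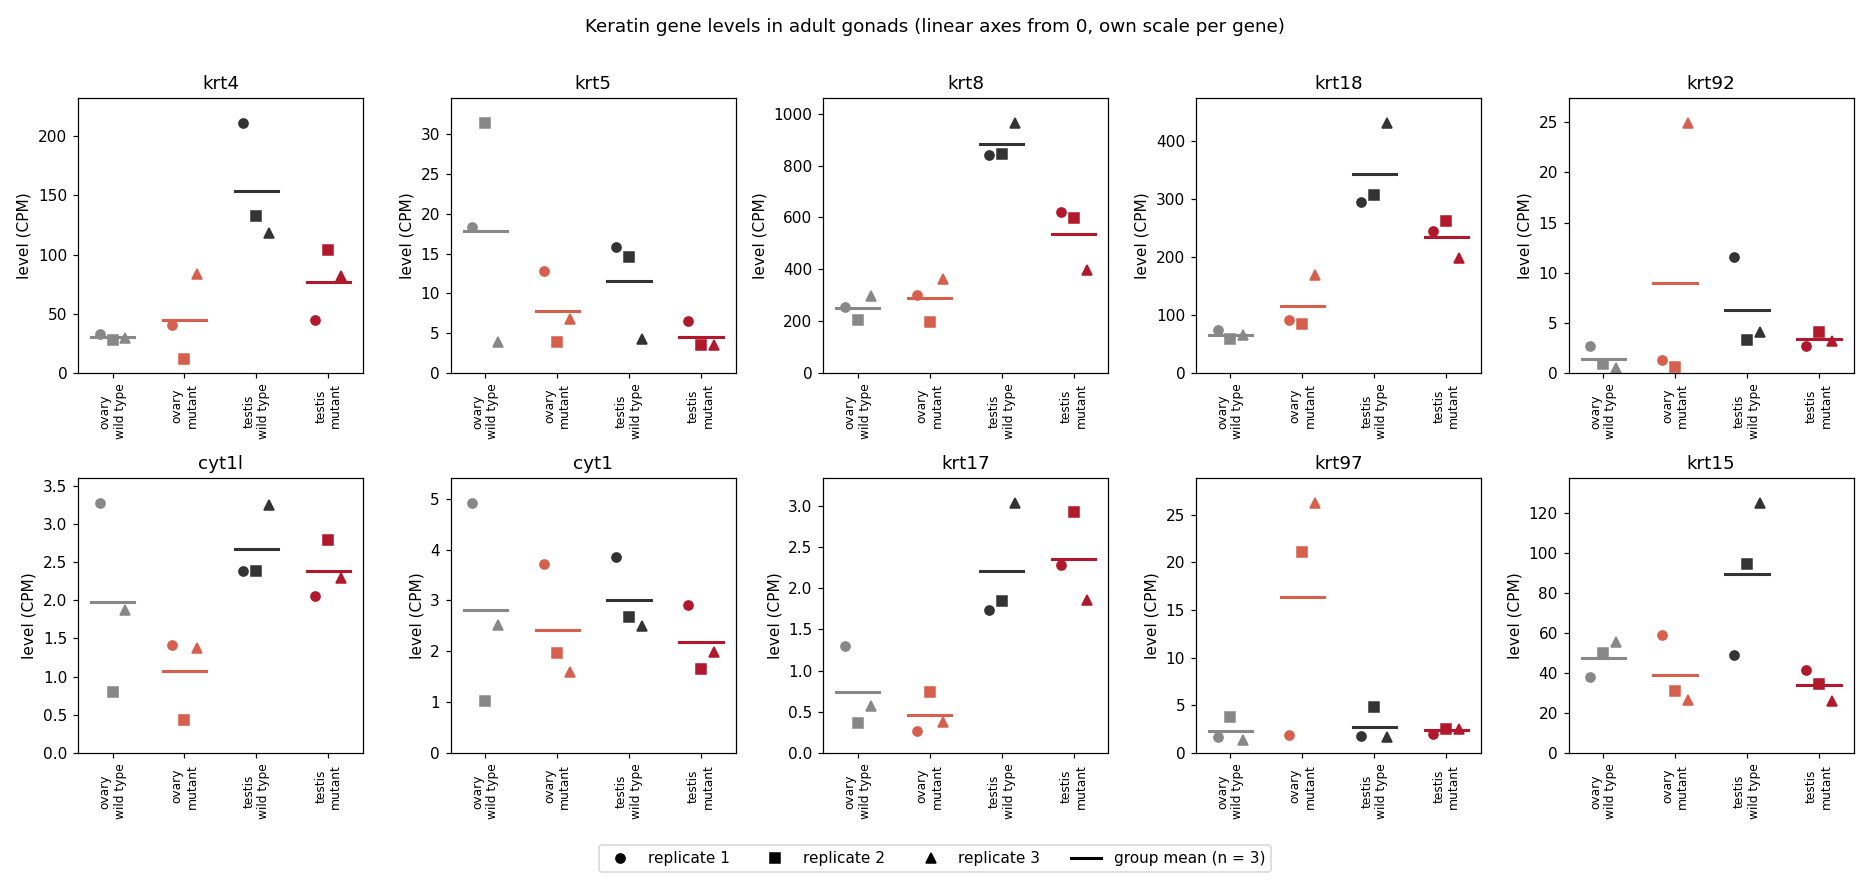
Level of each keratin gene (CPM, linear axis from 0) in the 12 gonad libraries, by tissue and genotype. Points are libraries and bars are means of 3. Krt4, krt8 and krt18 are higher in wild-type testis than in wild-type ovary, krt92 has 1 high mutant ovary, and krt97 has 2.

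Wild-type testis had higher levels than ovary for 5 of the 10 genes by edgeR's test and lower for 0. This comparison called 70.5% of 25870 genes, 41.6% higher and 28.9% lower, and its median log2 over all genes was 0.72, so a count of 5 in 10 is near the background. Krt18 was at 73.3, 57.6 and 65.7 CPM in ovary and 294, 306 and 430 CPM in testis (log2 2.39, SE 0.29, adjusted p = 1.5e-05). Krt8, its partner, was at 256, 204 and 297 CPM against 840, 843 and 963 CPM (log2 1.81, SE 0.27, adjusted p = 9.5e-05). Krt4 was at 33.2, 27.6 and 29.6 CPM against 211, 133 and 118 CPM (log2 2.35, SE 0.56, adjusted p = 0.0026).

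These 3 did not overlap between the gonads and passed whichever single library was left out. Krt17 (log2 1.55, adjusted p = 0.024, edgeR) was low in both, at 1.3 CPM or less in ovary and 1.74 to 3.03 in testis. Its adjusted p was 0.087, 0.077 and 0.092 without wild-type ovary replicates 2 or 3 or testis replicate 3. Krt15 (log2 0.91, adjusted p = 0.043) was at 37.9, 50 and 55.4 CPM in ovary and 49.2, 94.7 and 125 CPM in testis, which overlapped, and its log2 was close to the median of all genes. It passed without testis replicate 1 (adjusted p = 0.0098) and missed the threshold without any other single library, with adjusted p of 0.061 to 0.2. Without wild-type ovary replicate 2 or 3 or testis replicate 3, 3 genes were called.

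In the mutant ovary 0 of the 10 genes were called in edgeR, where 0.553% of all genes were, 0.348% higher, and 3827 genes had p under 0.05 before adjustment. DESeq2 called 1 of the 10, krt97 (adjusted p = 0.0084), and 4.5% of all genes, and limma-trend called 0 of the 10. Krt97 was at 1.86, 21.1 and 26.2 CPM in mutant ovary against 1.7, 3.8 and 1.38 CPM in wild type, so replicate 1 of the mutants lay within wild type. Its log2 was 2.83 (SE 0.79, adjusted p = 0.15, edgeR), and 3.34 (adjusted p = 0.035) without that replicate. Krt92 was at 24.9 CPM in mutant replicate 3 and at 0.551 to 2.73 CPM in the other 5 ovaries, and its log2 of 2.69 became -0.58 without replicate 3.

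In the mutant testis 0 of the 10 were called in edgeR, where 0.0696% of all genes were, 0.0271% higher, and 1813 genes had p under 0.05 before adjustment. DESeq2 called 1, krt15 (adjusted p = 0.049), and 1.15% of all genes, and limma-trend called 0 of the 10. Krt15 was at 41.6, 34.3 and 25.8 CPM in mutants against 49.2, 94.7 and 125 CPM in wild type (log2 -1.4, SE 0.37, adjusted p = 0.31, edgeR). Krt8 was at 619, 597 and 397 CPM against 840, 843 and 963 CPM (log2 -0.71, SE 0.27, adjusted p = 0.55). Krt4 (log2 -0.99) and krt18 (log2 -0.55) also lay lower without overlap, which makes 4 of the 10 genes, against 5.72% of all genes lower without overlap. The difference between the mutant effects in testis and ovary was not called for any of the 10 genes (0.0812% of all genes in edgeR, 0.0232% higher and 0.058% lower).

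Sums of the gonad support-cell list were 1980 to 3170 CPM in wild-type testis and 1470 to 2110 CPM in mutant testis. Those of the periderm list were 481 to 819 and 259 to 489 CPM. Between wild-type gonads the basal epidermis list summed to 1650 to 3100 CPM in ovary and 332 to 425 CPM in testis, although 8 of its 15 tested genes were called higher in testis and 1 lower, epcam (log2 -6.29), with a median log2 of 1.51. The ranges of the support-cell and periderm lists overlapped between the testis genotypes, and their part in the keratin values was not tested.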

How the data were processed

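Per the labels' protocols, TRIzol was used for extraction, and 100 ng of RNA went into each stranded mRNA library. Per the submitters' processing notes, Trimmomatic 0.36, kallisto 0.43.0, edgeR and the GRCz10 build were used. The authors deposited estimated counts per gene (30490) and per transcript (54435), and a normalized signal in CPM for 25374 genes, used here only in limma-trend. The fits used rounded estimated counts in edgeR 4.0.16 (R 4.3.3) with TMM scaling, filterByExpr (minimum count 10, total 15), robust quasi-likelihood F tests, two-sided, Benjamini-Hochberg threshold 0.05. Embryos (22305 genes, biological coefficient of variation 0.241) and gonads (25870 genes, 0.429) were fitted separately, with 14 comparisons in all. SEs were taken as the log2 fold change over the root of its F statistic. The fit was tested on simulated data.

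Alternatives were RLE scaling, no filter, DESeq2 1.42.0, limma-trend 3.58.1 (pseudocount 1 or 0.1), only the groups compared, each library left out, and replicate number as a block. Equally numbered libraries deviated together (correlation above 0.1 for every number) for kctd15, AP2 and both co-injections against their controls and for AP2-P59 against AP2, and not for the averaged comparison, AP2-P59 against wild type, the mutants or the gonads.

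Members and lists were chosen with earlier results of these data known. Genes outside the 10 were named by rule: keratins called in the averaged or a mutant comparison, the 4 most correlated genes of krt17, krt92 and krt97, up to 4 called genes of a list, and label checks. Flanking genes and the crest genes crestin and sox10 are named besides. Transcripts were matched by RefSeq accession, and gene order is from GRCz12tu, whose coordinates are not used.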

Additional observations from a re-analysis of the deposited data

Results flagged for a closer look

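The mutant effect on 4 genes pointed up in every embryo library and down in every testis library when each was set against its wild-type group. The embryo log2 fold change exceeded the testis one by 1.5 for krt4, 1.1 for krt8, 3.84 for krt15 and 1.11 for krt18. These differences were not tested, because embryos and gonads were fitted separately and differ in tissue and age. The krt15 effect in embryos rests on 3.007 to 6.998 estimated counts in wild type and 20.03 to 41.82 in mutants. Krt18 also lay higher in every mutant ovary and lower in every mutant testis than in wild type, with effects 1.36 apart on the log2 scale, and this difference was tested and not called (adjusted p = 0.31, edgeR).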

How the results depend on the processing

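The averaged kctd15 comparison called 4 of the 10 genes with each of the 18 libraries left out in turn, and 5 with the block or DESeq2. After AP2 with kctd15 against AP2 the count of 4 became 0 to 3 with a library left out and 0 with only the groups compared. In mutant embryos the count of 3 became 0 to 4 with a library left out, 7 with the replicate block, and 5 with DESeq2 or with limma-trend at pseudocount 1. For mutant ovary DESeq2 called 1 and leaving out a library gave 0 to 1, and for mutant testis DESeq2 called 1. For testis against ovary the count of 5 was 3 to 5 with a library left out and 4 to 6 under the other settings. The log2 of krt92 in mutant ovary ran from -0.58, without mutant replicate 3, to 3.69. In the paired comparisons of kctd15 with its controls the block moved no count of the 10 genes. Over all genes it raised the calls from 44 to 143 for AP2 with kctd15, from 0 to 12 for kctd15 alone and from 0 to 13 with AP2-P59, and DESeq2 called 150, 16 and 16. Over all genes, further counts of calls that moved by over 1.5 times from edgeR, with all libraries, were 117 with 298 (block) and 231 (DESeq2) for the averaged comparison, 912 with 2931 and 1661 for mutant embryos, 143 with 1058 (DESeq2), 221 (limma-trend, pseudocount 0.1) and 23 (only the groups compared) for mutant ovary, 18 with 293 (DESeq2), 156 and 59 (limma-trend), 10 (block) and 7 (only the groups compared) for mutant testis, and 21 with 394 (DESeq2), 65 and 42 (limma-trend) and 13 (block) for testis minus ovary. The causes of these changes were not tested. With 3 libraries a group, p-values measure the spread between these samples, and krt15 in embryos rests on few counts.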

Other observations

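Keratin genes outside the 10 were also measured in the gonads. Krt94 was at 226 CPM ± 93 (SD, n = 3) in wild-type testis and 80.1 ± 17.3 in ovary (log2 1.5, adjusted p = 0.0022, edgeR), against 3.3 ± 1.07 in wild-type embryos. Of the 8 other keratins tested, 5 were higher in testis and 0 lower, beside 41.6% of all genes higher. The 4 with the smallest p were krt1-19d, krt94, krtt1c19e and krt222.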
